A study of Homo sapiens with 9 samples.

Results

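The 43 genes described here encode the Wnt ligands, their receptors and their secreted inhibitors, together with AXIN2. They were taken from the 21170 features of the count table by symbol: 19 WNT genes, 10 Frizzled (FZD) genes, the receptors LRP5, LRP6, ROR1, ROR2 and RYK, 4 DKK genes, 4 SFRP genes and AXIN2. Poly(A) RNA had been sequenced from HaCaT, an immortalized human keratinocyte line that arose without a viral oncogene. The 9 libraries formed 3 groups of 3: cells overexpressing an FTO mutant with disrupted demethylase activity (mut-FTO), cells overexpressing wild-type FTO (FTO), and cells with an empty vector (Vector), all in the same cell line and without a stated drug or time. FTO removes methyl groups from adenosines in RNA. The promoter of the constructs is not given in the sources used here, nor whether a group was a single clone. Nor do the labels call the libraries of a group separate cultures, so p-values measure only the spread between these libraries, which may be technical.

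Wnt ligands are lipid-modified secreted proteins that bind Frizzled receptors at the cell surface. With the co-receptors LRP5 or LRP6 they stop the breakdown of beta-catenin, which then joins TCF factors on DNA and turns on genes such as AXIN2, a feedback inhibitor of the pathway. With ROR1, ROR2 or RYK they can instead act on cell shape and polarity without beta-catenin. SFRP proteins bind Wnt ligands outside the cell, and DKK1 blocks LRP5 and LRP6. In the epidermis, Wnt signalling is known for forming hair follicles and other skin appendages and for maintaining basal keratinocytes.

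Libraries held 32222203 to 37846027 counts, and 1 count was worth 0.0266 to 0.0339 CPM (counts scaled to the normalized library size). FTO RNA stood at 49.7, 82.7 and 64.2 CPM in mut-FTO, 69.6, 77.0 and 62.6 CPM in FTO, and 18.4, 17.0 and 25.8 CPM in Vector. It told both overexpressing groups from Vector but not one from the other. Vector replicate 3 stood apart: mitochondrially encoded genes took 14.97% of its counts, against 3.81% to 7.45% in the other 8 libraries, and the summed level of the Wnt ligands was lowest there. Calls of the members and of the other pathway genes that change without it are named below. All 10 keratinocyte markers examined were counted in every group, at a summed 18200 to 22850 CPM in mut-FTO, 14100 to 14420 CPM in FTO and 12640 to 14640 CPM in Vector.

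The promoters of 5 of the 8 members whose RNA level changed in mut-FTO against Vector are shown first. Those of SFRP1, WNT7B and WNT11 are not shown. Each promoter shown runs from 250 bases before to 50 after the RefSeq start (GRCh38.p14) in the direction of the gene. Capitals mark the TCF/LEF core CTTTGA or CTTTGT, the GC box GGGCGG and the AP-1 site TGACTCA, on either strand.
ROR2 (chr9:91950179-91950478, minus strand): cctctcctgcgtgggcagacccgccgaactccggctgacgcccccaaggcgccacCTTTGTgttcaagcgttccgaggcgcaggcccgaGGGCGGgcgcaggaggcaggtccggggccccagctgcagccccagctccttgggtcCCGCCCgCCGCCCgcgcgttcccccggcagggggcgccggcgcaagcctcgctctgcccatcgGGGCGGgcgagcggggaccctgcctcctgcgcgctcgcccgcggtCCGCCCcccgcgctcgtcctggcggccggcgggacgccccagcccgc
WNT3 (chr17:46818643-46818942, minus strand): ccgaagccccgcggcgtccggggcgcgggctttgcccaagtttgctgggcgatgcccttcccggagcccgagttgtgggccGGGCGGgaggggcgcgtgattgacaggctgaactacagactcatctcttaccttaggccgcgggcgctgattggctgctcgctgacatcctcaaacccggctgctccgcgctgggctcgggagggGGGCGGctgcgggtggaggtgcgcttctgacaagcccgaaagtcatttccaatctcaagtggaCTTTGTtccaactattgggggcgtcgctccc
WNT4 (chr1:22143048-22143347, minus strand): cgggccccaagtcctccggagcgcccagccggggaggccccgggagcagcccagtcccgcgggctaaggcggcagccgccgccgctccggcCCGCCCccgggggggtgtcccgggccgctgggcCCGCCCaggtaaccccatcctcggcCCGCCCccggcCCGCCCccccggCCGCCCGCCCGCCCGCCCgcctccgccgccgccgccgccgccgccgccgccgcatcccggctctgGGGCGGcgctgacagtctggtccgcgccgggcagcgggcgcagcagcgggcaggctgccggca
WNT10A (chr2:218880602-218880901, plus strand): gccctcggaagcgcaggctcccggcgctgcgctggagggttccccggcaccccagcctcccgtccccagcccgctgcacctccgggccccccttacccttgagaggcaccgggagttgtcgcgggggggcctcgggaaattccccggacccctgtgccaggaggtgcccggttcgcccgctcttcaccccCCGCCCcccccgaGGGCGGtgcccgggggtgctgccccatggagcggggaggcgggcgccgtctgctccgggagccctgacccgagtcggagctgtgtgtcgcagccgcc
FZD1 (chr7:91264183-91264482, plus strand): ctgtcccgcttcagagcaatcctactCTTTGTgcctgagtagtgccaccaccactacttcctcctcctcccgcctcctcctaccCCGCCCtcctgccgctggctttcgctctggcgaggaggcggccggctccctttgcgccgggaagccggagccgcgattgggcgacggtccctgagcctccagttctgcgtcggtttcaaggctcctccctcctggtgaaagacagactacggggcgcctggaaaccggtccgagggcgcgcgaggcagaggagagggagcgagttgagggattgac

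Promoters of 29 of the 43 members were examined. These are not the same 29 as the members tested below, since they include genes without a count such as WNT2 and WNT8A. A GC box stood in 24 of the 29, against 44.6% of all 27305 promoters, and the TCF/LEF core in 5 of the 29 (DKK1, FZD1, ROR2, WNT3 and WNT8B), against 26.3% of all. None of these 29 windows held the AP-1 letters, which 4.92% of all promoters did. GC boxes overlapped one another in WNT4, which had 9 of them and a GC content of 85.7%. The median GC content was 73% over the members' promoters and 58.3% over all, and their median number of CG dinucleotides was 31 and 14. These matches describe the letters only.

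Reads were counted for 35 of the 43 members, and 29 passed the filter on low counts: 13 ligands, 8 Frizzleds, the 5 other receptors and 3 inhibitors. In mut-FTO against Vector, 5 members rose (WNT4, WNT7B, WNT10A, WNT11 and FZD1) and 3 fell (WNT3, ROR2 and SFRP1), while 21 did not pass the test (edgeR quasi-likelihood test, adjusted p below 0.05). Over all 13713 genes tested, 7.78% passed in this comparison, 3.27% upward and 4.51% downward. The median log2 fold change was 0.31 over the 29 tested members and −0.0012 over all tested genes. By role it was 1.08 for ligands, 0.11 for Frizzleds, −0.31 for the other receptors and −0.049 for inhibitors. Over the members it was 0.059 in FTO against Vector and −0.039 in mut-FTO against FTO. Over all tested genes these medians were −0.0020 and −0.0046. In FTO against Vector, SFRP1 fell, no member rose and 28 did not pass, against 0.744% of all genes that passed, 0.438% downward. Upward, 4 members had an unadjusted p below 0.05, DESeq2 called 2 (DKK1 and WNT11), and limma-voom 1 (WNT11). Of all 13713 genes tested, 678 had such an unadjusted p upward. In mut-FTO against FTO, WNT10A was higher, SFRP1 was lower and 27 members did not pass, against 2.33% of all genes that passed, 1.13% upward and 1.2% downward. Both comparisons with Vector share the Vector libraries.

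The counts depended on single libraries. Without Vector replicate 3, 12 members passed in mut-FTO against Vector, 5 in FTO against Vector and 10 in mut-FTO against FTO. Of all 13953 genes then tested, 15%, 3.41% and 10.2% passed in these comparisons. The members added without it were FZD6, WNT2B, WNT7A and WNT9A in mut-FTO against Vector, and FZD2, FZD6, WNT9A and WNT11 in FTO against Vector. In mut-FTO against FTO they were FZD1, FZD8, ROR2, WNT3, WNT4, WNT7A, WNT7B and WNT11. The single call in FTO against Vector was lost without FTO replicate 2 or 3 and was joined by 1 more without Vector replicate 1. One member passed in mut-FTO against FTO without any 1 mut-FTO library or without FTO replicate 1 or 2.

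**Figure D1:**
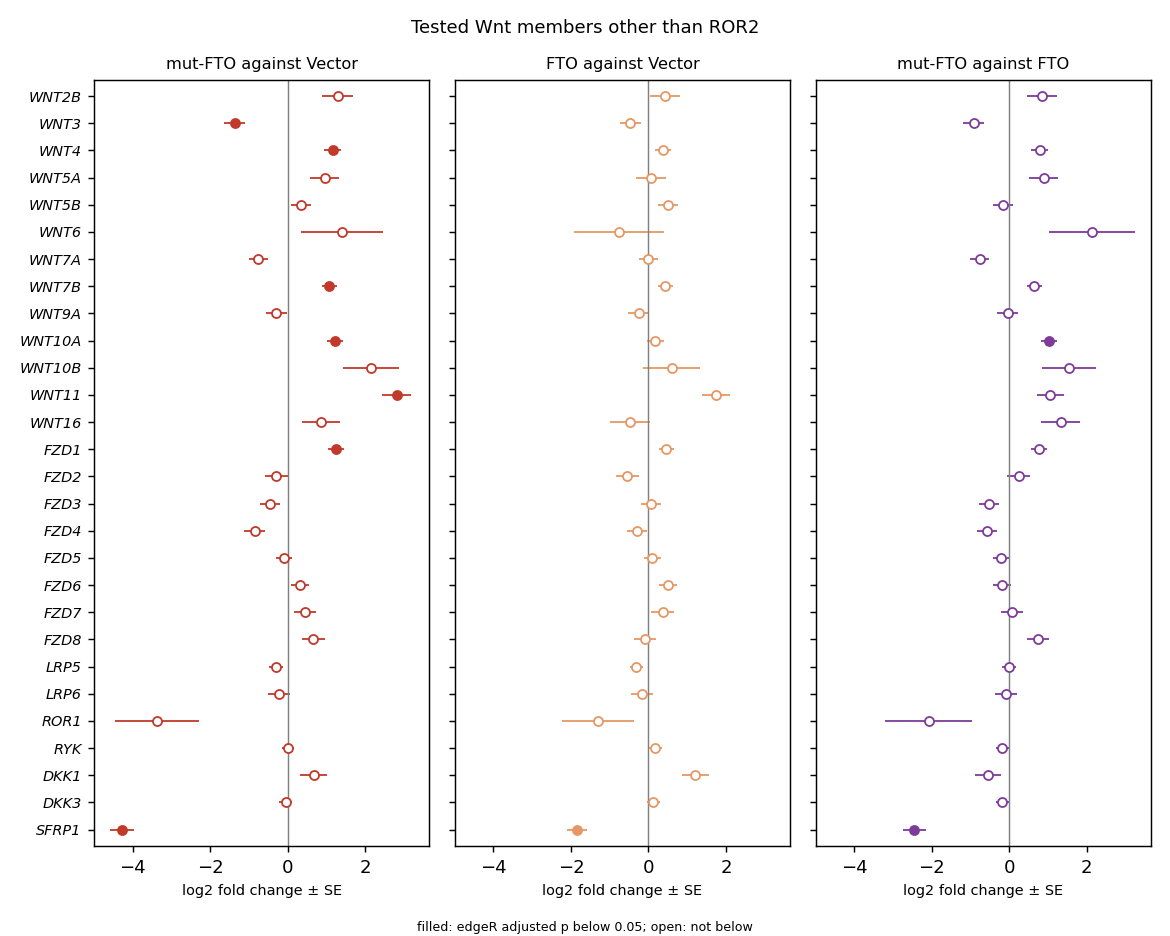
Log2 fold changes with standard errors of 28 tested members (all but ROR2, which had no count in mut-FTO), by edgeR. Panels from left to right give mut-FTO against Vector, FTO against Vector and mut-FTO against FTO; filled points passed an adjusted p below 0.05. SFRP1 is filled and left of 0 in every panel, at −4.28, −1.84 and −2.44, and WNT11 lies farthest right in mut-FTO against Vector, at 2.81.

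WNT10A and WNT4 together held over 50% of the ligand RNA in every library, although WNT9A lay above WNT4 in Vector replicate 2 (50.4 against 46.4 CPM). WNT10A, whose loss in people causes ectodermal dysplasia, and WNT4 together made up 66.1% to 67.4% of the summed ligand CPM in mut-FTO, 50.9% to 55.7% in FTO and 50.2% to 51.2% in Vector. Summed over the 19 ligand genes, the level was 315, 352.3 and 363.4 CPM in mut-FTO, 238.1, 217.1 and 215.6 CPM in FTO, and 233.2, 229.9 and 129.8 CPM in Vector. The mut-FTO libraries lay above all others, and Vector replicate 3 lay below all others.

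Levels between genes were compared per kilobase of the longest GENCODE transcript. In Vector the ligands ran, in CPM per kilobase, from WNT10A at 24.0 ± 7.18 through WNT4 at 10.2 ± 3.04, WNT9A at 9.68 ± 3.94, WNT7A at 6.98 ± 2.38, WNT7B at 3.67 ± 0.383 and WNT5B at 2.58 ± 0.877 to WNT11 at 1.30 ± 0.734 (SD, n = 3). WNT4, WNT9A and WNT7A overlapped with each other across Vector libraries. In mut-FTO WNT10A reached 55.7 ± 4.65 CPM per kilobase and WNT4 22.8 ± 1.65, and WNT11 came next at 9.15 ± 0.547. WNT9A and WNT7B followed at 7.90 ± 0.495 and 7.73 ± 1.599 CPM per kilobase. The values of WNT7B overlapped those of both WNT9A and WNT11. In FTO WNT11 stood at 4.36 ± 0.409 CPM per kilobase, below WNT10A, WNT4, WNT9A and WNT7A and overlapping WNT7B at 4.94 ± 0.565.

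WNT11, a ligand best known for the beta-catenin independent branch that guides cell movements in vertebrate embryos, changed most among the ligands that passed. It had 18.0, 16.5 and 18.5 CPM in mut-FTO, 9.16, 7.59 and 8.50 CPM in FTO, and 3.30, 3.35 and 0.874 CPM in Vector. The 3 groups did not overlap, with FTO between the others. Libraries of mut-FTO and Vector did not overlap in 24% of all tested genes, nor those of FTO and Vector in 21%. WNT11 rose 7.03-fold in mut-FTO against Vector (log2 2.81, SE 0.38, adjusted p = 0.000601) and by 2.40 on the log2 scale without Vector replicate 3. In FTO against Vector its log2 fold change was 1.74 (SE 0.37, adjusted p = 0.0544), which passed without Vector replicate 1 or 3 and with DESeq2 (adjusted p = 0.000369), limma-voom (0.0388) or no filter (0.0292).

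WNT10A had 130.3, 142 and 154 CPM in mut-FTO, 77.2, 65.7 and 64.7 CPM in FTO, and 74.1, 68.9 and 40.1 CPM in Vector. All mut-FTO libraries lay above the rest, while FTO and Vector overlapped. Libraries of mut-FTO and FTO did not overlap in 29% of all tested genes. WNT10A rose 2.32-fold in mut-FTO against Vector (log2 1.22, SE 0.21, adjusted p = 0.00358) and was 2.05-fold higher in mut-FTO than in FTO (log2 1.04, SE 0.21, adjusted p = 0.0239). The difference from FTO passed without any 1 Vector library but was lost without any 1 of the 6 libraries compared (adjusted p up to 0.138). WNT4, which in mice acts in kidney and female reproductive tract formation, had 80.2, 91.4 and 90.8 CPM in mut-FTO, 55.4, 44.8 and 51.7 CPM in FTO, and 45.2, 46.4 and 25.6 CPM in Vector. The pattern was the same as for WNT10A, with mut-FTO above and FTO and Vector overlapping. WNT4 rose 2.24-fold in mut-FTO against Vector (log2 1.16, SE 0.21, adjusted p = 0.00503), and its difference between mut-FTO and FTO, log2 0.79 (SE 0.21), had an adjusted p of 0.0814, which was 0.000245 without Vector replicate 3.

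WNT7B, a ligand that in mice acts in placenta, lung and brain vessel formation, had 24.6, 37.0 and 29.2 CPM in mut-FTO, 21.2, 19.98 and 16.9 CPM in FTO, and 13.7, 16.1 and 13.3 CPM in Vector. Its groups did not overlap, again with FTO between the others. It rose 2.11-fold in mut-FTO against Vector (log2 1.08, SE 0.20, adjusted p = 0.00456). WNT7B was also higher in mut-FTO than in FTO without Vector replicate 3 (adjusted p = 0.0124), against an adjusted p of 0.121 with it. WNT3, which is needed for limb formation in people, went the other way, with 1.73, 1.73 and 1.21 CPM in mut-FTO, 2.44, 3.51 and 2.83 CPM in FTO, and 4.06, 4.17 and 3.89 CPM in Vector. The groups were ordered without overlap, mut-FTO lowest. WNT3 fell 2.59-fold in mut-FTO against Vector (log2 −1.37, SE 0.27, adjusted p = 0.00717), and in FTO against Vector its log2 fold change was −0.46 (SE 0.26, adjusted p = 0.504).

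Among the 8 tested ligands that did not pass in mut-FTO against Vector, WNT2B had a log2 fold change of 1.28 (SE 0.39, adjusted p = 0.0676) with all mut-FTO libraries above Vector, and WNT7A one of −0.76 (SE 0.25, adjusted p = 0.0851) with overlap. WNT7A stood at 13.5, 18.1 and 18.3 CPM in mut-FTO, 26.7, 26.8 and 30.8 CPM in FTO, and 36.2, 30.9 and 17.5 CPM in Vector. Its Vector replicate 3 alone reached down into the mut-FTO range, and DESeq2 called both genes. Without it both passed in mut-FTO against Vector, WNT2B higher (adjusted p = 0.0449) and WNT7A lower (adjusted p = 0.000281). WNT5A, the ligand best known for ROR2, averaged 2.07 ± 0.454 CPM in mut-FTO, 1.11 ± 0.197 CPM in FTO and 1.07 ± 0.441 CPM in Vector (SD, n = 3 each), with an adjusted p of 0.172 in mut-FTO against Vector. WNT5B, WNT6, WNT9A, WNT10B and WNT16 had adjusted p-values of 0.0989 to 0.582 in that comparison. DESeq2 called WNT10B higher, and without Vector replicate 3 WNT9A was lower in mut-FTO and in FTO than in Vector (adjusted p = 0.00698 and 0.0298).

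**Figure D2:**
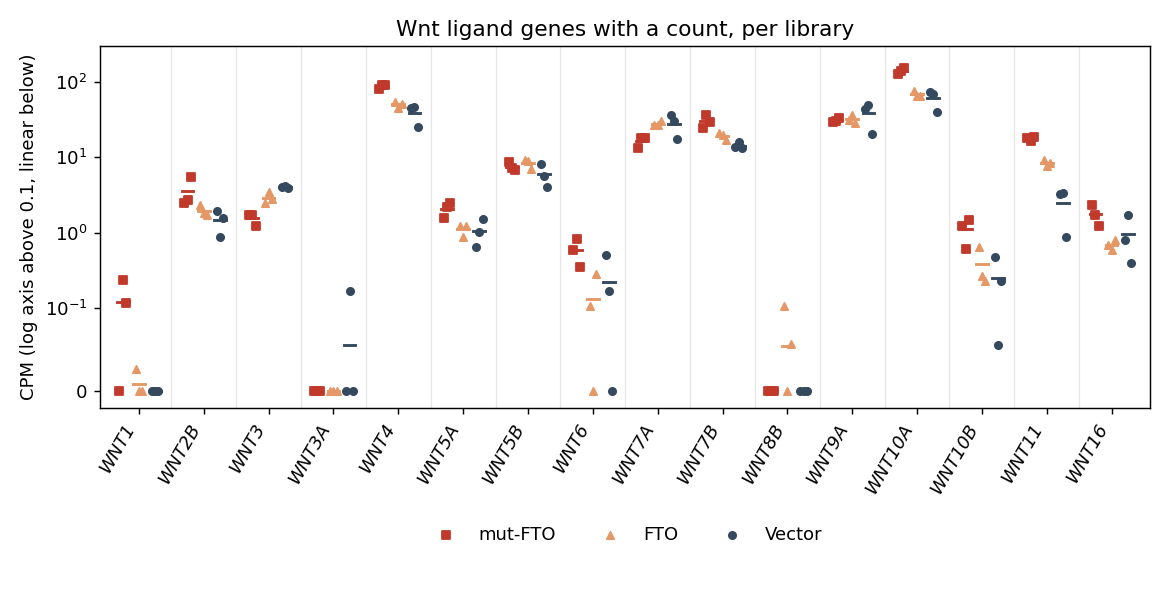
CPM of the 16 ligand genes with a count, on an axis that is logarithmic above 0.1 and linear below it, with 1 point per library and a bar at each group's mean. Squares are mut-FTO, triangles FTO and circles Vector. WNT4 and WNT10A sit highest in mut-FTO, WNT11 steps down through FTO to Vector, WNT3 runs the opposite way, and 1 Vector library of WNT11 lies at 0.874 CPM.

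Several ligand genes are next to each other among the protein-coding genes of RefSeq, and their levels in these cells differed. WNT6, the neighbour of WNT10A, had 22, 24 and 12 counts in mut-FTO, 4, 0 and 10 in FTO, and 17, 6 and 0 in Vector. WNT10B lies next to WNT1 and had 46, 18 and 51 counts in mut-FTO, 24, 10 and 8 in FTO, and 16, 2 and 8 in Vector. WNT1 had 0, 7 and 4 counts in mut-FTO, 1, 0 and 0 in FTO, and none in Vector. WNT9B, the neighbour of WNT3, had no count in any library. No difference in WNT6 or WNT10B passed the edgeR test, and WNT1 was too low to be tested.

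Of the Frizzled receptors, FZD1 alone passed in mut-FTO against Vector by edgeR with all 9 libraries. FZD1 had 24.1, 18.2 and 23.6 CPM in mut-FTO, 15.03, 13.0 and 10.6 CPM in FTO, and 10.4, 9.65 and 7.87 CPM in Vector. The groups did not overlap, with FTO between the others. It rose 2.36-fold (log2 1.24, SE 0.21, adjusted p = 0.00266), kept its call without any 1 library, and between mut-FTO and FTO its log2 fold change was 0.77 (SE 0.20, adjusted p = 0.0759, or 0.00490 without Vector replicate 3). FZD6, which orients hair follicles in mice, was the most abundant Frizzled per length, at 17.2 ± 3.98 CPM per kilobase in mut-FTO, 19.6 ± 1.96 in FTO and 13.9 ± 4.62 in Vector (SD, n = 3 each). It had 81.8, 52.2 and 62.0 CPM in mut-FTO, 70.2, 69.9 and 82.9 CPM in FTO, and 37.7, 48.1 and 71.8 CPM in Vector. These overlapped throughout, and Vector replicate 3 was the highest Vector library. In FTO against Vector the log2 fold change of FZD6 was 0.50 (SE 0.24, adjusted p = 0.428), and it passed there and in mut-FTO against Vector without Vector replicate 3 (adjusted p = 0.0226 and 0.0283). FZD4 had a log2 fold change of −0.86 (SE 0.27, adjusted p = 0.0738) in mut-FTO against Vector, all mut-FTO libraries lying below Vector. DESeq2 called FZD4 lower there, as did edgeR without Vector replicate 3 and mut-FTO replicate 2 together. The remaining 5 tested Frizzleds, FZD2, FZD3, FZD5, FZD7 and FZD8, had adjusted p-values of 0.215 to 0.838 in that comparison. Without Vector replicate 3, FZD2 was lower in FTO than in Vector (adjusted p = 0.0358) and FZD8 higher in mut-FTO than in FTO (adjusted p = 0.0459). FZD9 had 27 counts in mut-FTO, 14 in FTO and 28 in Vector over 3 libraries each. FZD10 had none in mut-FTO and FTO and 13 in Vector.

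ROR2, the receptor kinase that marks this gene group and binds WNT5A, had no count in any mut-FTO library. It had 37, 21 and 0 counts in FTO (0.983, 0.563 and 0 CPM) and 48, 38 and 31 counts in Vector (1.40, 1.06 and 0.874 CPM). FTO was split, with replicate 1 inside the Vector range and replicate 3 at 0 like mut-FTO. With the 3 mut-FTO libraries together set at 3 counts and Vector counts as they stood, ROR2 was at least 39.2-fold lower in mut-FTO. This ratio is by total counts, and edgeR gave an adjusted p of 0.0167 in mut-FTO against Vector. That call was lost without any 1 mut-FTO library (adjusted p up to 0.0690). Against FTO the level in mut-FTO was, on the same basis, at least 18.2-fold lower, with an adjusted p of 0.0838, which passed without FTO replicate 3 or Vector replicate 3. Even in Vector ROR2 was low, at 0.272 ± 0.0654 CPM per kilobase (SD, n = 3), against 14.1 ± 0.682 for LRP5.

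ROR1, its relative, had 0, 0 and 8 counts in mut-FTO, 27, 6 and 5 in FTO, and 16, 43 and 31 in Vector. The mut-FTO libraries lay below Vector, and FTO overlapped both. By total counts ROR1 was 11.3-fold lower in mut-FTO than in Vector (exact 95% counting interval 5.51 to 27.0), with an edgeR adjusted p of 0.0853. DESeq2 and limma-voom called ROR1 lower in mut-FTO. None of the other receptors passed in any comparison by edgeR with all 9 libraries. RYK, a Wnt receptor with an inactive kinase domain, had 58.3, 56.7 and 52.6 CPM in mut-FTO, 65.5, 62.7 and 61.4 CPM in FTO, and 45.6, 54.0 and 67.4 CPM in Vector. Vector spanned both other groups, and no comparison passed (adjusted p = 0.691 to 0.991). LRP5 had 46.1, 68.9 and 61.0 CPM in mut-FTO, 62.3, 62.3 and 51.4 CPM in FTO, and 68.9, 75.9 and 73.1 CPM in Vector. All FTO libraries lay below the lowest Vector library, while mut-FTO replicate 2 all but tied with it at 68.9 CPM. Log2 fold changes of LRP5 against Vector were −0.31 (SE 0.17) in both groups, with adjusted p-values of 0.340 in mut-FTO and 0.505 in FTO. LRP5 passed as lower in mut-FTO against Vector without Vector replicate 3 and mut-FTO replicate 2 together. LRP6 averaged 7.58 ± 1.72 CPM in mut-FTO, 7.98 ± 2.24 CPM in FTO and 8.91 ± 2.86 CPM in Vector (SD, n = 3 each).

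**Figure D3:**
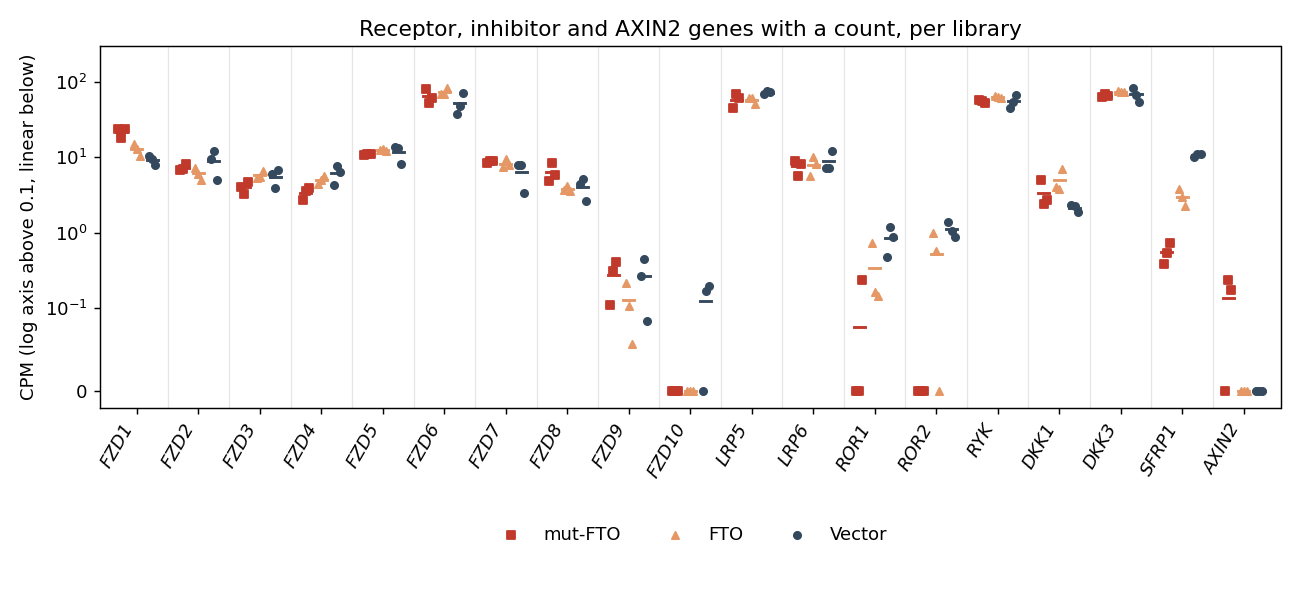
CPM of the receptor, inhibitor and AXIN2 genes with a count, on an axis that is logarithmic above 0.1 and linear below it, with 1 point per library and a bar at each group's mean. Squares are mut-FTO, triangles FTO and circles Vector. SFRP1 is lowest in mut-FTO, higher in FTO and highest in Vector, ROR2 is at 0 in the 3 mut-FTO libraries and in 1 FTO library, and LRP5, RYK and DKK3 lie between 45.6 and 83.2 CPM.

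SFRP1, a secreted protein with a Frizzled-like domain that captures Wnt ligands, passed in every comparison. It had 0.378, 0.543 and 0.722 CPM in mut-FTO, 3.74, 2.98 and 2.23 CPM in FTO, and 10.1, 11.1 and 11.0 CPM in Vector. The groups were far apart, mut-FTO lowest and FTO between. In mut-FTO it fell 19.5-fold against Vector (log2 −4.28, SE 0.31, adjusted p = 6.84e-06), a call kept without any 1 library. In FTO it fell 3.59-fold against Vector (log2 −1.84, SE 0.27, adjusted p = 0.00722), a call lost without FTO replicate 2 or 3 (adjusted p up to 0.0634). In mut-FTO it was also 5.44-fold lower than in FTO (log2 −2.44, SE 0.30, adjusted p = 0.00130), without any 1 library too. SFRP1 was the only SFRP gene with a count: SFRP2, SFRP4 and SFRP5 had none.

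DKK3, a member of the Dickkopf family that does not block LRP5 and LRP6 as DKK1 does, was the most abundant inhibitor gene, with 63.9, 69.2 and 66.0 CPM in mut-FTO, 75.8, 73.9 and 75.2 CPM in FTO, and 83.2, 68.6 and 54.2 CPM in Vector. Vector spanned the other groups, and no comparison passed (adjusted p = 0.724 to 0.902). DKK1 had 5.08, 2.41 and 2.74 CPM in mut-FTO, 4.06, 3.83 and 7.07 CPM in FTO, and 2.34, 2.24 and 1.89 CPM in Vector. All libraries of both overexpressing groups lay above Vector. Its log2 fold change was 1.21 in FTO against Vector (SE 0.34, adjusted p = 0.178 by edgeR) and 0.67 in mut-FTO against Vector (SE 0.34, adjusted p = 0.290). DESeq2 called the difference in FTO. DKK2 and DKK4 had no count.

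AXIN2, the feedback gene that often serves as a readout of beta-catenin signalling, was at or near 0 throughout, with 0, 7 and 6 counts in mut-FTO and none in FTO or Vector. It was too low to be tested with the filter. Without the filter its adjusted p was 0.303 in mut-FTO against Vector and 0.449 in mut-FTO against FTO. With its 13 counts in mut-FTO taken as they stand and Vector set at 3 counts in total, the ratio was 4.31-fold. This ratio allows for no counting error in the 13. In all, 8 genes had no count in any library: WNT2, WNT8A, WNT9B, DKK2, DKK4, SFRP2, SFRP4 and SFRP5. WNT3A had 6 counts, all in Vector replicate 2, and WNT8B had 6, all in FTO. The depth allows no statement on genes this low.

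The other genes of the pathway were read from 4 lists with 79 symbols, of which 59 were tested. In mut-FTO against Vector 6 of these rose, 4 fell and 49 did not pass, against 7.78% of all genes that passed. In FTO against Vector 1 rose, none fell and 58 did not pass, against 0.744% of all genes. Here 8 had an unadjusted p below 0.05 in the downward direction, DESeq2 called 2 lower (CCND1 and VANGL2), and limma-voom 0. Of all 13713 genes tested, 953 had such an unadjusted p downward. In mut-FTO against FTO 2 were higher, 2 lower and 55 did not pass, against 2.33% of all genes. Their median log2 fold changes, in that order of comparisons, were 0.056, −0.071 and 0.18, against −0.0012, −0.0020 and −0.0046 over all tested genes. Without Vector replicate 3 the genes that passed numbered 13, 4 and 17 of 61 tested, against 15%, 3.41% and 10.2% of all genes. Without 1 of the other libraries they numbered 3 to 6 in mut-FTO against Vector for every mut-FTO and FTO library and 4 for Vector replicate 2. In mut-FTO against FTO they numbered 2 without mut-FTO replicate 2 or 3 or FTO replicate 2 or 3. With only the 6 libraries of mut-FTO and Vector, CCND1 and PRICKLE3 alone passed, both lower in mut-FTO. Genes added without Vector replicate 3 were AXIN1, TCF7L1 and TNFRSF19 in mut-FTO against Vector, and CCND1, GPC6 and VANGL2 in FTO against Vector. In mut-FTO against FTO, BAMBI, BCL9L, CELSR1, CELSR2, EPHB2, KREMEN1, RAC1, TLE2 and TLE4 were added as higher. CCND1, MYC, PORCN and PRICKLE3 were added there as lower.

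At the cell surface, the glypicans GPC4 and GPC6, heparan sulfate proteoglycans that hold Wnt ligands, differed between mut-FTO and FTO. GPC4 had 2.32, 2.78 and 2.02 CPM in mut-FTO, 5.98, 9.41 and 6.01 CPM in FTO, and 1.05, 0.727 and 1.18 CPM in Vector. The groups did not overlap, FTO highest. GPC4 rose 7.203-fold in FTO against Vector (log2 2.85, SE 0.31, adjusted p = 0.000940) and 2.40-fold in mut-FTO against Vector (log2 1.26, SE 0.30, adjusted p = 0.0229), and was 3.002-fold lower in mut-FTO than in FTO (adjusted p = 0.0129). The call in FTO against Vector was kept without any 1 library, while that of mut-FTO against Vector was lost without mut-FTO replicate 1 or 2 or Vector replicate 2 (adjusted p up to 0.0968), and that against FTO without any mut-FTO library or FTO replicate 2 or 3 (up to 0.0922). GPC6 had 6.76, 4.45 and 6.12 CPM in mut-FTO, 16.9, 18.9 and 17.6 CPM in FTO, and 8.74, 9.31 and 13.2 CPM in Vector. Its groups did not overlap, mut-FTO lowest and FTO highest. GPC6 was 3.08-fold lower in mut-FTO than in FTO (log2 −1.62, SE 0.23, adjusted p = 0.00305), without any 1 library too. In mut-FTO against Vector it fell 1.80-fold (adjusted p = 0.0371), and of the 9 fits that each left out 1 library this held in those without Vector replicate 1 or 3. GPC6 passed in FTO against Vector without Vector replicate 3 (adjusted p = 0.00971). PORCN, the enzyme that attaches the lipid to Wnt ligands, fell 1.48-fold in mut-FTO against Vector to 56.7 ± 6.57 CPM, against 84.1 ± 10.8 CPM in Vector (SD, n = 3 each; adjusted p = 0.0450). Of the 9 fits that each left out 1 library, the call of PORCN held in that without Vector replicate 3. The remaining 11 of the 14 tested genes of this list did not pass in mut-FTO against Vector. The R-spondins RSPO1 to RSPO4 and the inhibitor WIF1 had no count.

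In the list of the destruction complex, Dishevelled and nuclear factors, 2 of 25 tested genes rose in mut-FTO against Vector and none fell. This held by edgeR, DESeq2 and limma-voom with all 9 libraries, but none passed with only the 6 libraries compared. None had an unadjusted edgeR p below 0.05 downward, against 1512 of all 13713 genes tested. Both genes that rose encode Groucho-type co-repressors that bind TCF factors. TLE4 rose 1.75-fold to 34.3 ± 2.83 CPM in mut-FTO, against 19.6 ± 3.22 CPM in Vector (SD, n = 3 each; adjusted p = 0.0133), a call lost without mut-FTO replicate 3 or Vector replicate 2. TLE2 rose 1.85-fold to 5.40 ± 0.778 CPM, against 2.91 ± 0.533 CPM (adjusted p = 0.0432), and of the 9 fits that each left out 1 library this held in that without Vector replicate 3. None of the 25 passed in FTO against Vector or in mut-FTO against FTO by edgeR with all 9 libraries. There 4 had an unadjusted p below 0.05 downward in the first and 4 upward in the second. Of all 13713 genes tested, 953 and 1001 did so. DESeq2 called TLE4 in the second alone and limma-voom none. Without Vector replicate 3, edgeR also called TCF7L1 higher and AXIN1 lower in mut-FTO against Vector (adjusted p = 0.0181 and 0.0472). TCF7L1 had 22, 60 and 29 counts in mut-FTO, 18, 8 and 4 in FTO, and 4, 0 and 18 in Vector. Leaving out its highest Vector library moved its log2 fold change from 2.44 to 4.225. Also without Vector replicate 3, TLE2, TLE4 and BCL9L were higher in mut-FTO than in FTO (adjusted p = 0.0438, 0.00195 and 0.0369). LEF1 and TCF7, nuclear partners of beta-catenin, were too low to be tested.

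In the planar polarity list of 15 genes, 14 were tested. VANGL2, a membrane protein of the core polarity complex, had 11.7, 14.1 and 15.4 CPM in mut-FTO, 3.67, 4.72 and 3.86 CPM in FTO, and 6.98, 7.83 and 9.19 CPM in Vector. The groups did not overlap, with mut-FTO highest and FTO lowest. VANGL2 was 3.36-fold higher in mut-FTO than in FTO (log2 1.75, SE 0.21, adjusted p = 0.00111), without any 1 library too. It rose 1.71-fold in mut-FTO against Vector (adjusted p = 0.0372), and of the 9 fits that each left out 1 library this held in those without mut-FTO replicate 1 or Vector replicate 3. Its log2 fold change in FTO against Vector was −0.97 (SE 0.21, adjusted p = 0.0603, or 0.0221 without Vector replicate 3). PRICKLE3, of the family of cytoplasmic partners of VANGL2, fell 2.17-fold in mut-FTO against Vector, to 18.3 ± 2.30 CPM, against 39.7 ± 9.50 CPM in Vector (SD, n = 3 each; adjusted p = 0.00434). The remaining 12 did not pass in that comparison.

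Among 10 textbook targets of beta-catenin, 6 were tested. CCND1, encoding cyclin D1, had 68.7, 72.9 and 79.9 CPM in mut-FTO, 93.0, 102 and 102 CPM in FTO, and 149, 164 and 157 CPM in Vector. The groups did not overlap, mut-FTO lowest. CCND1 fell 2.12-fold in mut-FTO against Vector (log2 −1.08, SE 0.14, adjusted p = 0.000469), without any 1 library too, and in FTO against Vector its log2 fold change was −0.66 (SE 0.14, adjusted p = 0.0535). It passed there with RLE size factors, with DESeq2 and without Vector replicate 3 (adjusted p = 0.00301). The ephrin receptors EPHB2 and EPHB3 rose 1.77-fold and 2.02-fold in mut-FTO against Vector (adjusted p = 0.0138 and 0.0171), calls lost without mut-FTO replicate 2 or 3 (adjusted p up to 0.0698 and 0.0879). Neither of these calls was kept with only the 6 libraries compared. EPHB3 was also 2.17-fold higher in mut-FTO than in FTO (adjusted p = 0.0257), lost without mut-FTO replicate 2 or 3 or any FTO library (up to 0.141). The other 3 tested genes of this list, ASCL2, BAMBI and MYC, did not pass in mut-FTO against Vector by edgeR. DESeq2 called BAMBI higher there. All 6 tested genes had an unadjusted edgeR p below 0.05 there, 4 upward and 2 downward. Of all 13713 genes tested, 1387 had such a p upward and 1512 downward. NKD1, SP5 and TNFRSF19 were too low to be tested with all 9 libraries, with NKD2 at 0. Without Vector replicate 3, TNFRSF19 was called lower in mut-FTO than in Vector (adjusted p = 0.0287). The library left out had no count of this gene, like every mut-FTO library. Vector replicates 1 and 2 held 24 and 10 counts, while the FTO replicates held 0, 2 and 0. The call thus rests on the Vector libraries in which the gene was counted, and no difference is concluded from it.

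**Figure D4:**
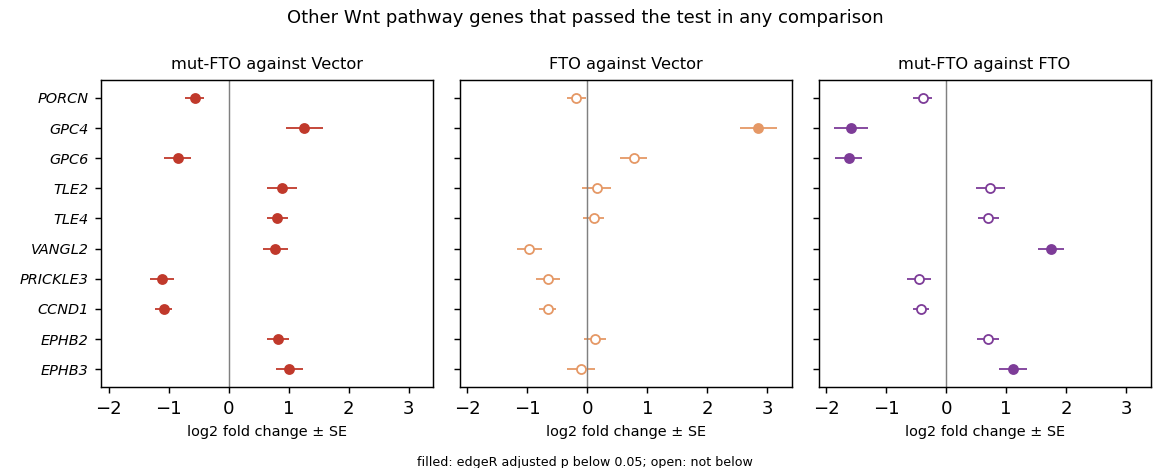
Log2 fold changes with standard errors, by edgeR, of the 10 genes of the other pathway lists that passed in any comparison. Panels from left to right give mut-FTO against Vector, FTO against Vector and mut-FTO against FTO; filled points passed an adjusted p below 0.05. GPC6 and VANGL2 lie on opposite sides of 0 in mut-FTO and FTO against Vector, at −0.85 and 0.77 for GPC6 and at 0.78 and −0.97 for VANGL2, of which both values in FTO did not pass.

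In bulk RNA, fewer cells of a type and less RNA per cell cannot be told apart. Markers of other cell types were measured as well. The 10 fibroblast markers summed to 11.1 to 12.4 CPM in mut-FTO, 8.21 to 10.9 CPM in FTO and 11.5 to 14.1 CPM in Vector, with THY1 at 0 in all groups. One of them, DCN, which encodes the matrix protein decorin, rose in mut-FTO and in FTO against Vector (adjusted p = 0.00130 and 0.0480). DCN had 116, 46 and 61 counts in mut-FTO, 16, 27 and 42 in FTO, and 0, 4 and 0 in Vector. The 8 endothelial markers summed to 0 to 0.611 CPM in mut-FTO, 0.687 to 1.18 CPM in FTO and 1.10 to 1.99 CPM in Vector, with PECAM1, CLDN5 and TIE1 at 0. The 8 melanocyte markers reached 1.53 to 2.76 CPM in mut-FTO, 1.502 to 2.36 CPM in FTO and 0.935 to 1.49 CPM in Vector, with TYR and DCT at 0. The 10 leukocyte markers summed to 69.5 to 109.9 CPM in mut-FTO, 66.4 to 74.4 CPM in FTO and 67.4 to 90.4 CPM in Vector, with CD3D, CD2 and MS4A1 at 0. CD68, a lysosomal protein, took 44.4 to 80.4 CPM of this. CD14, a receptor for bacterial lipopolysaccharide, had 24.3, 28.3 and 30.3 CPM in mut-FTO, 15.3, 17.4 and 15.7 CPM in FTO, and 15.1, 15.5 and 10.6 CPM in Vector. CD14 rose 2.01-fold in mut-FTO against Vector (adjusted p = 0.00600). Of the 10 keratinocyte markers, 3 rose, 1 fell and 6 did not pass in mut-FTO against Vector, against 7.78% of all genes that passed. LAMA3 fell by 1.33 on the log2 scale (adjusted p = 0.000281). The basal keratins KRT5, KRT14 and KRT15 rose 1.61-fold, 1.88-fold and 2.48-fold (adjusted p = 0.0468, 0.00876 and 0.000911). In the same comparison WNT4, WNT7B, WNT10A and WNT11 rose. At an unadjusted p below 0.05, 3 of the 10 markers were higher and 3 lower (LAMA3, TP63 and COL17A1), against 1387 and 1512 of all 13713 genes. The median log2 fold change over the 10 was −0.0011. The part of these markers in the Wnt results was not tested.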

How the data were processed

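Per the submitters' processing notes, the authors used HISAT2 and StringTie. The deposited values are raw counts of reads per gene as whole numbers. Which program counted the reads, with which annotation and strand setting, is not given in the sources used here. Among genome builds the notes list mm10, of mouse, while the gene symbols are human, so the only coordinates printed are those of RefSeq promoters. Column names are letter codes, read as N for Vector, F for FTO and tF for mut-FTO. Which of the last 2 carries the mutant rests on the letters, since FTO counts do not tell them apart. Reads of overlapping, antisense or related genes may be shared in ways not known. Libraries of a group differed by more than sampling noise.

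Differences were tested with edgeR 4.0.16 (R 4.3.3). Genes passing filterByExpr by group (minimum count 10, minimum total 15) were kept, which left 13713. One model held all 9 libraries, scaled by TMM factors, with 3 group terms. Robust quasi-likelihood p-values were adjusted by the Benjamini-Hochberg method over all genes tested and called below 0.05. Standard errors come from the fold change and F statistic. A group without a count was set at 3 counts over its libraries, and the fold by library totals is then a bound. Bounds take the counts of the other group as they stand, and cover counting error only in the group without a count. Counting intervals are exact at 95% and cover counting error only. The test was checked on simulated counts.

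Members and lists were chosen with earlier results of these data known. Values per library are given for ROR2, AXIN2, members called in any comparison and the 2 most abundant per role. From the other lists, up to 4 called genes of lowest p per comparison are named, and the genes added without Vector replicate 3. Values per library of other genes were added after they were seen. Alternatives were RLE size factors, DESeq2 1.42.0, limma-voom (limma 3.58.1), testing without the filter, keeping genes that average at least 10 counts, fitting the 6 compared libraries alone, a replicate block, leaving out Vector replicate 3 with mut-FTO replicate 2, and leaving out each library.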

Additional observations from a re-analysis of the deposited data

How the results depend on the processing

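Counts of genes that passed changed with the test and the libraries, and no called member changed direction, in the comparison in which it was called, under the alternatives run. With DESeq2, the members that passed numbered 13 in mut-FTO against Vector, 3 in FTO against Vector and 7 in mut-FTO against FTO (8, 1 and 2 as reported). For the other pathway genes it called 4 in FTO against Vector and 9 in mut-FTO against FTO (1 and 4 as reported), and over all genes 1680, 364 and 751 (1067, 102 and 319 as reported). Without Vector replicate 3 and mut-FTO replicate 2 together, 14, 6 and 8 members passed, 6 other pathway genes in FTO against Vector and 13 in mut-FTO against FTO, and 2401, 1050 and 1196 of all genes. With only the 6 libraries compared, 7 members passed in mut-FTO against FTO, 2 and 12 other pathway genes in mut-FTO against Vector and against FTO, and 621, 41 and 1218 of all genes. In FTO against Vector, limma-voom and no filter each called 2 members, and RLE factors 2 other pathway genes. With each library left out, the members that passed numbered 7 to 12, 0 to 5 and 1 to 10, the other pathway genes 3 to 13, 1 to 4 and 2 to 17, and all genes 609 to 2089, 27 to 476 and 71 to 1427. The cause was not tested.

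With the replicate number as a block, 6 other pathway genes passed in mut-FTO against Vector and 67 of all genes in FTO against Vector, and 8, 1 and 2 members passed. Deviations of same-numbered libraries correlated by −0.127 to 0.106, so the numbers are not taken as pairs. Log2 fold changes that turned sign did not pass. In mut-FTO against Vector, RYK (0.0058 as reported) was −0.0033 with RLE, −0.0034 with DESeq2, −0.0059 with the 6 libraries and −0.12 to 0.16 with a library left out, and DKK3 was −0.20 to 0.11. In FTO against Vector, WNT10A was −0.061 without both libraries named above and −0.070 to 0.34 with 1 left out, DKK3 −0.033 and −0.042 to 0.29, EPHB3 −0.32 to 0.14 and TLE4 −0.00023 to 0.21. In mut-FTO against FTO, LRP5 was 0.0048 with RLE, 0.0047 with DESeq2 and −0.13 to 0.14 with 1 left out. Low counts limit what can be read from AXIN2, with at most 7 counts in a library.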
